A study of Mus musculus with 6 samples.

Results

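Toll-like receptors and their lipopolysaccharide co-receptors were examined as 10 named genes of the 770 genes on a mouse immune panel: Tlr1, Tlr2, Tlr3, Tlr4, Tlr7, Cd14, Lbp, Cd180, Ly86 and Ly96. They were chosen by name, with earlier results of these data known. The 10 genes were measured in 6 melanoma samples, 3 from mice given 4'-BR and 3 labelled Control. All 6 samples came from mice whose tumours carry an activated Braf allele on a PtenNULL background, started by topical 4-hydroxy-tamoxifen on shaved back skin when the mice were 10 weeks old. The treated mice received 4'-bromo-resveratrol (4'-BR), a brominated resveratrol analogue known as a blocker of the sirtuin deacetylases Sirt1 and Sirt3, at 30 mg/kg into the peritoneum on 3 days a week for 5 weeks. The sources used here do not state what mice of the Control group were given. The labels do not say that each sample came from a different mouse, so the p-values cover only sample-to-sample spread, which may be technical. RNA was taken from whole tumours, so fewer cells of a type and less RNA per cell cannot be told apart. None of the 7 melanocyte markers listed for a check of the tissue label was analysed here.

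Toll-like receptors bind conserved microbial molecules, and some host molecules released by damaged tissue, and signal through adaptor proteins to NF-κB and interferon regulatory factors. Lipopolysaccharide of Gram-negative bacteria is picked up by the serum protein LBP, passed to CD14, and presented to the receptor TLR4 in complex with MD-2, the product of Ly96. CD180 is a TLR4 homologue without the signalling domain, paired with MD-1, the product of Ly86, and was described in B cells and other antigen-presenting cells. In skin and melanoma, macrophages, dendritic cells, fibroblasts and keratinocytes are among the cells known to carry members of the family.

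Each value below is a count of fluorescent barcodes, scaled so that the geometric mean of the 20 housekeeping probes is the same in every sample (a scaled count). Levels of different genes are not set against each other, because probes differ in efficiency. Raw totals over the 770 genes ran from 118221 to 254862 in 4'-BR samples and from 322485 to 472402 in Control samples. The groups therefore differ in depth without overlap, and depth and treatment cannot be told apart. Of the 60 member values, 58 lay above the mean plus 2 SD of the same sample's 8 negative probes. The 2 that did not were Tlr2 and Tlr7 in 4'-BR 3.

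Of the 10 genes, Lbp fell in 4'-BR tumours and no other gene passed the test (edgeR quasi-likelihood test, adjusted p under 0.05 over 548 genes). Among all 548 genes, 6.93% passed by the same rule, 5.66% lower and 1.28% higher. In 5 of the 10 genes, Lbp, Cd14, Cd180, Ly86 and Tlr2, all 4'-BR samples lay below all Control samples, against 17.9% of all genes tested, and in 0 of the 10 did they lie above, against 12.6%. The same 5 had an unadjusted p under 0.05, against 15.7% of all genes with a lower value, and 0 of the 10 had one with a higher value, against 7.66%. Negative log2 fold changes were found in 8 of the 10 and in 52.7% of all genes. The median log2 fold change (4'-BR over Control) of the 10 genes was −0.63, and that of all genes tested was −0.04. Tlr4 and Ly96, the subunits of the lipopolysaccharide receptor itself, overlapped between groups, as did Tlr1, Tlr3 and Tlr7.

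**Figure D1:**
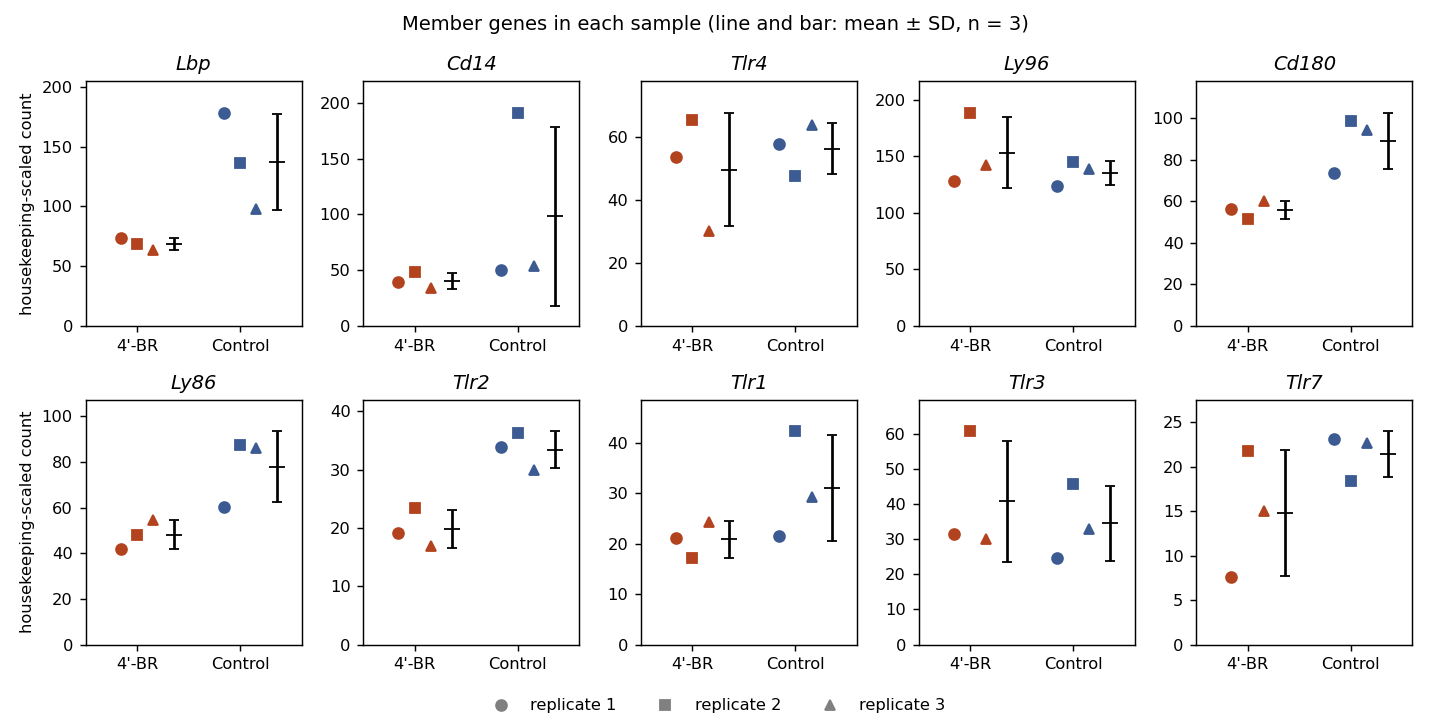
Housekeeping-scaled count (vertical axes, linear from 0) of each of the 10 genes in 3 4'-BR samples (red, left) and 3 Control samples (blue, right). Symbols mark the replicate number, and the black line and bar give the mean and SD. Lbp lies between 63.8 and 73.6 in 4'-BR samples and between 98.02 and 178 in Control samples, and 1 Control sample stands at 191 for Cd14.

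Lbp encodes the plasma protein that extracts lipopolysaccharide from bacterial membranes. It stood at 73.6, 68.4 and 63.8 scaled counts in the 4'-BR samples, against 178, 136 and 98.02 in the Control samples. The 4'-BR values were close together and all below the lowest Control value, while the Control values spanned a wide range. The means were 68.6 ± 4.91 in 4'-BR and 137 ± 40.1 in Control samples (SD, n = 3 each). The level was 1.99-fold lower in 4'-BR tumours (log2 fold change −0.99, SE 0.25, 95% interval −1.55 to −0.43, edgeR adjusted p = 0.044). The adjusted p lies close to the threshold, and the call was lost in 5 of the 6 fits that left out 1 sample, with log2 fold changes from −1.19 to −0.77 and adjusted p from 0.0237 to 0.149. It was also lost with total count scaling (adjusted p = 0.0626) and in limma on log2 values (0.0663).

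Cd14 encodes the membrane protein that takes lipopolysaccharide from LBP. Its scaled counts were 39.2, 48.2 and 33.8 in 4'-BR samples, against 50.3, 191 and 53.4 in Control samples. Control 2 stood far above the other 5 samples, and the remaining Control values lay just above the highest 4'-BR value. The raw count of 321 in Control 2 has a counting interval of 287 to 358 (exact Poisson, 95%, counting error only). Cd14 had a log2 fold change of −1.29 (SE 0.51, 95% interval −2.44 to −0.14, edgeR adjusted p = 0.163), and −0.36 without Control 2 (adjusted p = 0.546). Csf3r, the receptor for granulocyte colony-stimulating factor and a neutrophil marker, had the pattern nearest to that of Cd14 over the 6 samples. Csf3r stood at 21.02, 14.0 and 13.1 in 4'-BR and 21.4, 66.6 and 24.1 in Control samples. Among other neutrophil markers, Control 2 was the highest Control sample for Cxcr2 (33.3) but the lowest for S100a8 (2764, against 4619 and 4254). The cell source of the Cd14 pattern was not tested. Likeness was the root-mean-square difference of centred log2 values, which was 0.27 for Csf3r against a median of 0.80 over all genes tested. Il1rl1 (0.36) and C5ar1 (0.38), receptors for interleukin-33 and complement C5a, came next.

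Tlr4 and Ly96 encode the receptor complex that signals the presence of lipopolysaccharide. Tlr4 stood at 53.5, 65.3 and 30.0 scaled counts in 4'-BR samples, against 57.7, 47.6 and 63.6 in Control samples. The groups overlapped fully, with both the highest and the lowest value in 4'-BR samples. The log2 fold change of Tlr4 was −0.16 (SE 0.30, 95% interval −0.84 to 0.51, edgeR adjusted p = 0.737), and 0.07 without 4'-BR 3. Ly96, which encodes the lipopolysaccharide-binding subunit MD-2, stood at 128, 188 and 143 in 4'-BR samples, against 124, 145 and 138 in Control samples. Of the 4'-BR samples, 4'-BR 2 lay above the Control range and the other two lay within it. For Ly96 the log2 fold change was 0.17 (SE 0.20, 95% interval −0.27 to 0.61, edgeR adjusted p = 0.615), and −0.01 without 4'-BR 2. A decrease of Ly96 below 0.83-fold or an increase above 1.53-fold thus lies outside its 95% interval. The sign of Ly96 turned to −0.50 with positive control scaling, a scaling that shifted the all-gene median to −0.67 and called 44.3% of all genes lower, 7 of these 10 among them.

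Cd180 and Ly86, which encode the partners of 1 complex, had nearly the same pattern. Cd180 stood at 56.4, 51.3 and 60.02 scaled counts in 4'-BR samples, against 73.4, 98.7 and 94.4 in Control samples. Ly86 stood at 42.05, 48.2 and 54.4 in 4'-BR samples, against 60.2, 87.4 and 86.3 in Control samples. In both genes the groups did not overlap, and Control 1 was the Control sample nearest to the 4'-BR samples. The log2 fold changes were −0.67 for Cd180 (SE 0.22, edgeR adjusted p = 0.106) and −0.71 for Ly86 (SE 0.25, edgeR adjusted p = 0.121), neither past the threshold. Leaving out each sample in turn gave −0.79 to −0.59 for Cd180 and −0.86 to −0.61 for Ly86. By the same measure of likeness, Cd180 was the gene nearest to Ly86 among all genes tested (0.11). Tmem173 (0.14) and Tlr8 (0.17) came next for Ly86, against a median of 0.47. For Cd180 the nearest were the chemokine gene Cxcl14 (0.10), Ly86 (0.11) and Tlr8 (0.15), against a median of 0.44.

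The 250 bases before an annotated start of each gene are shown because the 2 genes had nearly the same pattern. They are RefSeq sequences of build GRCm38.p6, 5′ to 3′ on the gene's own strand, at chr13:102693297-102693546 (plus strand) for Cd180 and chr13:37345095-37345344 (plus strand) for Ly86.
Cd180: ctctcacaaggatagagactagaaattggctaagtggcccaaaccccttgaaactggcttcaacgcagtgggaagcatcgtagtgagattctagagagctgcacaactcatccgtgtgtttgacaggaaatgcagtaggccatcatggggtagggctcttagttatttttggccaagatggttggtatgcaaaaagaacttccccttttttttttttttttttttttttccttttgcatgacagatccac
Ly86: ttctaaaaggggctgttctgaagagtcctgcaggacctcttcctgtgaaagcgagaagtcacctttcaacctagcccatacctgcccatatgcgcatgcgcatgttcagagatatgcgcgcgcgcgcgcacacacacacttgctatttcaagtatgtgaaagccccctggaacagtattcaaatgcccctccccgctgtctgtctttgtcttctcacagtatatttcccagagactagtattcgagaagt
Neither window held, on either strand, a match to the 7 motifs searched. The same was true of the window of a second annotated start of Cd180 (chr13:102693308-102693557, not printed). The 7 motifs were AP-1 (TGANTCA), C/EBP (TTNNGNAA), STAT (TTCNNNGAA), the PU.1 core (GAGGAA), the E-box (CACGTG), the interferon-stimulated response element and NF-κB, the last 2 by their usual consensus. Of 32851 RefSeq promoters of the same length, 36.9% held the C/EBP letters, 23.3% the PU.1 core, 7.25% NF-κB, 7.02% STAT, 6.75% AP-1, 6.02% the E-box and 2.98% the response element. The absence of a match says only that these letters are not in these windows.

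**Figure D2:**
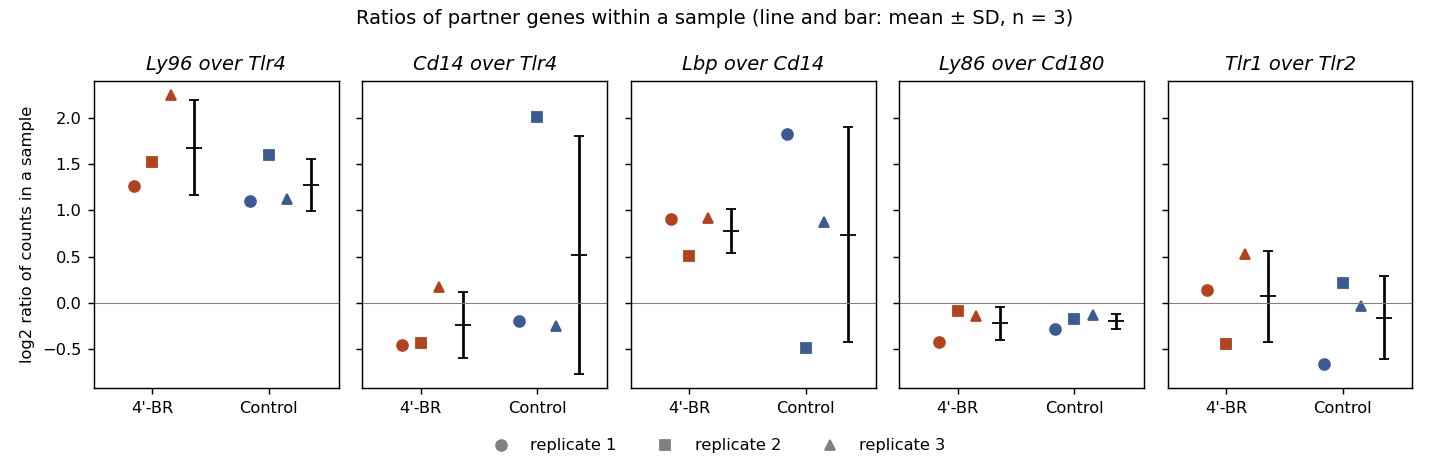
Log2 ratio of the counts of 2 partner genes within each sample (vertical axis), for 5 pairs, in 3 4'-BR samples (red, left) and 3 Control samples (blue, right), with mean and SD in black. Ly86 over Cd180 stays between −0.42 and −0.09 in 4'-BR and between −0.29 and −0.13 in Control samples, while the 2 pairs with Cd14 spread widely in Control samples.

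A ratio of 2 genes within a sample does not depend on how samples are scaled, so it was used to ask whether partners kept their proportion. The log2 ratio of Ly86 over Cd180 averaged −0.22 ± 0.18 in 4'-BR and −0.20 ± 0.08 in Control samples (SD, n = 3 each), a difference of −0.02 (exact permutation p = 0.9, two-sided). The ratio of Ly96 over Tlr4 averaged 1.68 ± 0.51 in 4'-BR and 1.27 ± 0.28 in Control samples (exact permutation p = 0.3, two-sided), a difference of 0.40 that was 0.12 without 4'-BR 3. For Cd14 over Tlr4 the means were −0.24 ± 0.35 and 0.52 ± 1.29 in 4'-BR and Control samples (exact permutation p = 0.5), with a difference of −0.76 that was −0.014 without Control 2, for Lbp over Cd14 0.78 ± 0.24 and 0.74 ± 1.16 (exact permutation p = 0.8), and for Tlr1 over Tlr2 0.07 ± 0.49 and −0.16 ± 0.45 (exact permutation p = 0.6). No pair differed beyond its spread, and the groups overlapped in all 5. After Benjamini-Hochberg adjustment over the 5 pairs every p was 0.9. With 3 samples against 3 the test cannot go below 0.1, so these p-values do not show that the ratios were equal.

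Tlr2 and Tlr1 encode cell-surface receptors that pair to bind bacterial lipopeptides. Tlr2 stood at 19.1, 23.3 and 16.9 scaled counts in 4'-BR samples, against 33.8, 36.3 and 30.0 in Control samples. The groups did not overlap and both were tight. The log2 fold change of Tlr2 was −0.75 (SE 0.28, 95% interval −1.37 to −0.13, edgeR adjusted p = 0.135), and it stayed between −0.87 and −0.67 with single samples left out. The raw counts of Tlr2 in 4'-BR samples were only 20, 15 and 9, and the last has a counting interval of 4.12 to 17.1. Tlr1 stood at 21.02, 17.1 and 24.4 in 4'-BR samples, against 21.4, 42.2 and 29.3 in Control samples. Here Control 1 fell inside the 4'-BR range. For Tlr1 the log2 fold change was −0.59 (SE 0.34, edgeR adjusted p = 0.316), and −0.29 without Control 2. The genes nearest in pattern to Tlr2 were Fyn (0.08), Tie1 (0.12) and Ifitm2 (0.14), which encode a Src-family kinase, an endothelial receptor kinase and an interferon-induced membrane protein, against a median of 0.45.

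Tlr3 and Tlr7 encode endosomal sensors of RNA, double-stranded for TLR3 and single-stranded for TLR7. Tlr3 stood at 31.5, 60.7 and 30.01 scaled counts in 4'-BR samples, against 24.7, 45.8 and 32.9 in Control samples. The groups overlapped, and replicate 2 was the highest sample in each. The log2 fold change of Tlr3 was 0.22 (SE 0.36, 95% interval −0.58 to 1.03, edgeR adjusted p = 0.711), −0.17 without 4'-BR 2 and −0.48 with positive control scaling. Tlr7 stood at 7.64, 21.8 and 15.01 in 4'-BR samples, against 23.1, 18.4 and 22.7 in Control samples. Here 4'-BR 2 lay within the Control range while the other two 4'-BR samples lay below it. For Tlr7 the log2 fold change was −0.59 (SE 0.39, edgeR adjusted p = 0.39), −0.20 without 4'-BR 1 and −1.004 without 4'-BR 2. The mean raw count of Tlr7 was 20, at the minimum for testing, and 2 of its 4'-BR samples had raw counts of 8.

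The upstream windows of Tlr2 and Tlr3 are shown because both held a match to the NF-κB consensus. Neither gene passed the threshold. They are RefSeq sequences of build GRCm38.p6 at chr3:83841609-83841858 for Tlr2 and chr8:45410381-45410630 for Tlr3, both on the minus strand and printed 5′ to 3′ toward the start. Capitals mark matches to NF-κB and C/EBP.
Tlr2: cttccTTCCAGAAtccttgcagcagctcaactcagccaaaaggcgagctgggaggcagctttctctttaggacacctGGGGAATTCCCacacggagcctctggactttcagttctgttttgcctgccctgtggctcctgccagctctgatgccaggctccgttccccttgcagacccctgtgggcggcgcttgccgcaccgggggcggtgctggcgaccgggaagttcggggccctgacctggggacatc
Tlr3: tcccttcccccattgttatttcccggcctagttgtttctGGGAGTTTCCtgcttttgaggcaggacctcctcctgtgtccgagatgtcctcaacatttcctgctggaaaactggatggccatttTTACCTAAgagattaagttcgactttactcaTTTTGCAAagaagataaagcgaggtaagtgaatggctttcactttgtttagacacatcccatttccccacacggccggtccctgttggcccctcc
In Tlr2 the first capital run matches C/EBP, and the second holds 2 overlapping NF-κB matches. In Tlr3 the first capital run matches NF-κB and the other two match C/EBP. Of the 32851 RefSeq promoters, 7.25% held NF-κB and 36.9% the C/EBP letters. The match is a description of letters and not of binding. Of the 10 genes, Tlr1, Tlr2, Tlr3, Cd180 and Ly86 had a sequence in the promoter table that was searched.

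**Figure D3:**
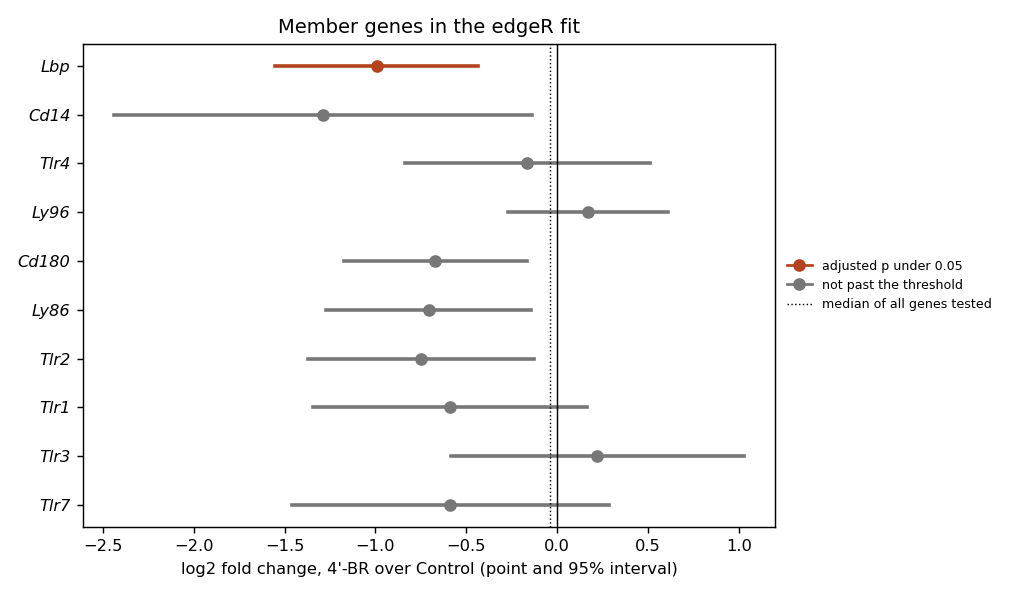
Log2 fold change (4'-BR over Control, horizontal axis) of each of the 10 genes in the edgeR fit, with its 95% interval as a line. Lbp, in red, passed the threshold at −0.99. The intervals of Cd14, Cd180, Ly86 and Tlr2 also lie below 0 but their adjusted p did not pass, and the dotted line marks the median of all genes tested at −0.04.

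Of 7 other Toll-like receptor genes listed, 4 were measured and 1 reached the count minimum. Tlr8, the neighbour of Tlr7 on the X chromosome in the RefSeq order, stood at 25.8, 29.6 and 30.01 scaled counts in 4'-BR samples, against 39.6, 51.7 and 39.5 in Control samples. The Tlr8 groups did not overlap, and the log2 fold change was −0.63 (SE 0.27, edgeR adjusted p = 0.188). Tlr5, Tlr6 and Tlr9 had mean raw counts of 10.7, 9.33 and 17.2 and were under the minimum. Of their 6 values each, 3 for Tlr5, 4 for Tlr6 and 1 for Tlr9 were not above the negative probe limit of their sample, which limits what any difference can show. In the fit with no minimum their log2 fold changes were 0.80 for Tlr5 (SE 0.39), −0.12 for Tlr6 (SE 0.47) and −0.06 for Tlr9 (SE 0.38), with edgeR adjusted p from 0.282 to 0.946.

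Downstream of the receptors, no gene of the adaptor, kinase and transcription factor list passed in either direction (0 of 25 tested in edgeR, 2 higher and 1 lower at an unadjusted p under 0.05, 0 in DESeq2 and 0 in limma). Among all 548 genes, 6.93% passed in edgeR, and 7.66% were higher and 15.7% lower at an unadjusted p under 0.05. In a list of 25 genes, 0 passing lies near the all-gene share. The median log2 fold change of these 25 was 0.11, beside −0.63 for the receptor and co-receptor genes and −0.04 for all genes tested. Myd88, the adaptor used by most of the family, was at 0.40 (edgeR adjusted p = 0.303), and Ticam1, the adaptor of TLR3 and TLR4, at 0.53 (0.31). Mapk14, the p38α kinase, was at 0.44 (edgeR adjusted p = 0.135), and Irf7, the transcription factor that TLR7 signalling activates, at −0.88 (0.15). None of 8 inhibitors of the pathway passed (0 in edgeR, DESeq2 and limma, 1 higher and 1 lower at an unadjusted p under 0.05 in edgeR, median 0.11). In a list of 8 genes this too lies near the all-gene share. Sigirr, a decoy-like receptor that dampens signalling, stood at 38.2, 54.4 and 43.1 in 4'-BR samples, against 19.8, 23.2 and 26.3 in Control samples. Its groups did not overlap and its log2 fold change was 0.96 (SE 0.27, edgeR adjusted p = 0.0681). Irak3, the kinase-dead inhibitor of the MyD88 complex, was at −0.47 (adjusted p = 0.195).

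Of 28 inflammatory genes known to be induced through Toll-like receptors, 14 reached the count minimum. Of the 14, 3 fell in edgeR, against 5.66% of all genes tested, and the median log2 fold change was −0.37. DESeq2 called 3 of the 14 lower and limma 2. None rose (0 in edgeR, DESeq2 and limma, 1 at an unadjusted p under 0.05 in edgeR). The 3 that fell in edgeR were the cytokine gene Il1b, the neutrophil chemokine gene Cxcl2 and the inflammasome sensor gene Nlrp3. Il1b stood at 21.02, 24.9 and 11.3 scaled counts in 4'-BR samples, against 111, 173 and 54.1 in Control samples. The Il1b value of 4'-BR 3 was under the negative probe limit of that sample. Cxcl2 stood at 2.867, 6.22 and 3.751 scaled counts in 4'-BR samples, against 28.04, 58.88 and 8.778 in Control samples. All its 4'-BR values were under the scaled negative probe limits of their samples (6.685, 9.455 and 18.49). The 4'-BR level of Cxcl2 thus reads near background, which limits what the size of its fall can show. Nlrp3 stood at 33.5, 23.3 and 24.4 in 4'-BR samples, against 75.9, 137 and 70.2 in Control samples. As in Cd14, Control 2 was the highest sample in Il1b, Cxcl2 and Nlrp3. Of 8 proteins described as endogenous ligands of TLR4 or TLR2, 3 were measured, and 2 fell in edgeR (2 in DESeq2, 1 in limma). S100a8, a calgranulin gene, stood at 1847, 1135 and 1649 in 4'-BR samples, against 4619, 2764 and 4254 in Control samples, and Fn1, the fibronectin gene, fell by 1.64 on the log2 scale (edgeR adjusted p = 0.00422). Hmgb1, which encodes a nuclear protein released from damaged cells, was at −0.13 (edgeR adjusted p = 0.581). S100a8 also stands in the neutrophil marker list and Fn1 in the fibroblast marker list.

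**Figure D4:**
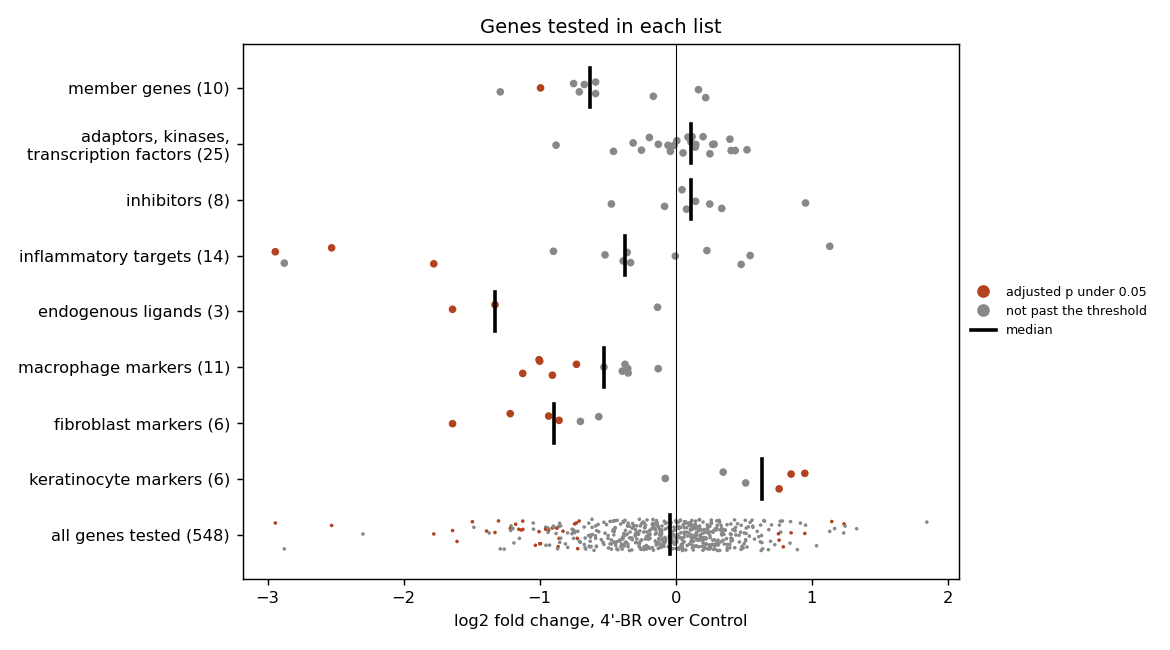
Log2 fold change (4'-BR over Control, horizontal axis) of every gene tested in each list, 1 point a gene, with the number of genes in brackets and the median as a black line. Red points passed the edgeR test. The 10 receptor and co-receptor genes have a median of −0.63, the adaptors, kinases and transcription factors 0.11, and the macrophage markers −0.53.

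Markers of some cell types also differed between groups, lower in 4'-BR samples in some lists and higher in the keratinocyte list. Among all 548 genes tested, 5.66% fell and 1.28% rose by the same edgeR rule. All 11 macrophage and monocyte markers tested had negative log2 fold changes (median −0.53), against 52.7% of all genes tested, and 5 of the 11 fell. Their summed scaled count ran from 4207 to 6304 in 4'-BR samples and from 8924 to 10930 in Control samples. Most of that sum was Lyz2, which ran from 2821 to 4373 in 4'-BR and from 5877 to 8534 in Control samples. Of 6 fibroblast markers 4 fell, with sums of 10330 to 15350 in 4'-BR and 23230 to 31930 in Control samples. Most of each sum came from the collagen genes Col1a1 and Col3a1. In 4'-BR samples Col1a1 ran from 4973 to 7049 and Col3a1 from 3772 to 7104. In Control samples Col1a1 ran from 10020 to 13430 and Col3a1 from 10020 to 17760. Of 3 neutrophil markers tested, S100a8 fell, and the sum over 6 measured was 1180 to 1904 in 4'-BR and 2882 to 4669 in Control samples. S100a8 alone stood at 1135 to 1847 and at 2764 to 4619, so that sum nearly repeats 1 gene. Csf3r (−1.19, edgeR adjusted p = 0.177) and Cxcr2 (−0.93, 0.235) did not pass. Elane, Mpo and Camp, under the count minimum, had mean raw counts of 4.5, 8.5 and 6.67. Their log2 fold changes in the fit with no minimum were 0.83, 0.06 and 0.37. Of 6 keratinocyte markers 3 rose, with sums of 5723 to 6647 in 4'-BR and 4052 to 4757 in Control samples. None of 7 endothelial, 5 T cell or 2 dendritic cell markers tested passed in edgeR (1, 0 and 0 at an unadjusted p under 0.05) or in DESeq2 and limma, and their sums overlapped between groups. All 8 B cell markers had mean raw counts at or under 10.9, the mean plus 2 SD of the negative probes, so these 8 probes read near background. In limma on log2 values the calls were fewer, at 1 of 11 macrophage, 1 of 6 fibroblast, 0 of 3 neutrophil and 0 of 6 keratinocyte markers, against 5, 5, 1 and 4 in DESeq2. The part of these cell types in the results was not tested.

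Scaled instead by the geometric mean of the 11 macrophage markers, an alternative chosen after seeing the data, the all-gene median shifted to 0.61 and 50.4% of genes were called higher. All 11 markers had negative log2 fold changes on the housekeeping scale, so this scaling raises every gene by about the same amount. Genes that fell about as much as the markers must come near 0 on it, which is no test of a macrophage part. On that scale Cd180 was at −0.01, Ly86 at −0.05, Tlr7 at 0.03, Tlr1 at 0.08 and Tlr2 at −0.12, with edgeR adjusted p from 0.72 to 0.974. On the same scale Lbp was at −0.36 (edgeR adjusted p = 0.284) and Cd14 at −0.63 (0.267). Ly96 at 0.81 (edgeR adjusted p = 0.00633) and Tlr3 at 0.84 (0.0439) passed on that scale, where the all-gene median was also above 0, and Tlr4 was at 0.44 (0.193).

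The genes nearest in pattern to Lbp were Plau, which encodes the urokinase protease (0.11), the thrombomodulin gene Thbd (0.19) and the scavenger collectin gene Colec12 (0.20), against a median of 0.59. Nearest to Tlr4 were Tgfbr2 (0.08), Itga2 (0.10) and Mef2c (0.12), against a median of 0.45, and nearest to Ly96 were Nt5e (0.07), Nfatc4 (0.08) and Tank (0.09), against a median of 0.33. The edgeR adjusted p of the 6 genes nearest to Tlr4 and Ly96 ran from 0.477 to 0.985. Of the genes nearest to Lbp, Plau (−0.87, edgeR adjusted p = 0.0387) and Colec12 (−1.03, 0.0496) passed. Thbd (−0.94, 0.0712) did not. Genes picked for a pattern like that of Lbp share its difference between groups by that choice.

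**Figure D5:**
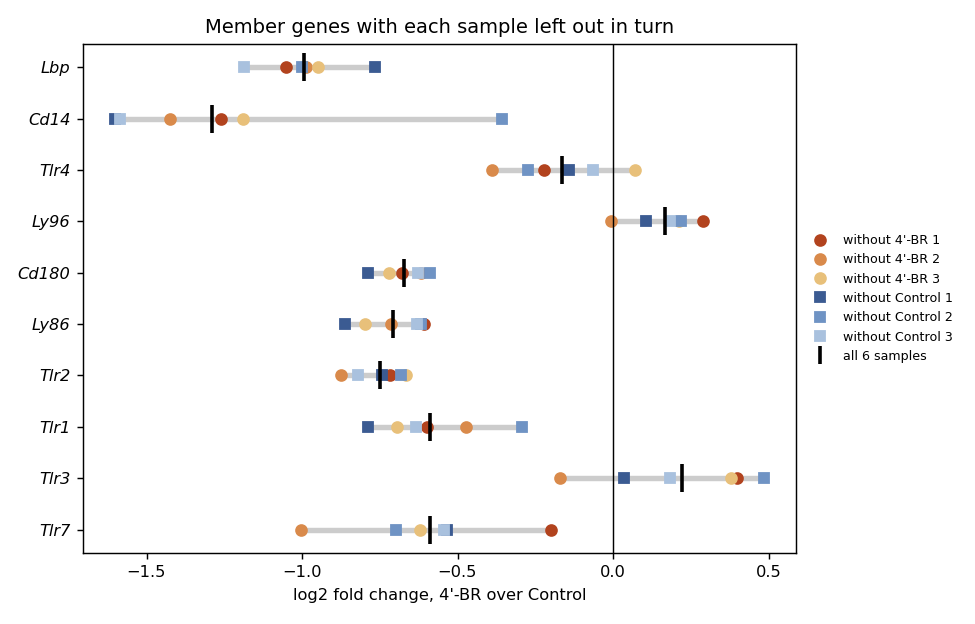
Log2 fold change (4'-BR over Control, horizontal axis) of each of the 10 genes with each sample left out in turn (circles for a 4'-BR sample, squares for a Control sample) and with all 6 samples (black bar). Cd14 ranges from −1.60 to −0.36 (the second value without Control 2) and Cd180 from −0.79 to −0.59.

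Single samples weighed differently on the 10 genes. The values of Lbp, Cd14, Cd180, Ly86, Tlr1, Tlr2 and Tlr7 stayed negative whichever sample was left out, while those of Tlr3, Tlr4 and Ly96 each changed sign once. For the 5 genes without overlap between groups, a constant sign follows from that. The coefficient of variation within Control samples was 81.8% for Cd14, against 7.89% to 33.9% for the other 9 genes. Within 4'-BR samples it was 7.15% for Lbp, 7.82% for Cd180 and 47.7% for Tlr7. For Lbp and Cd180 the counting interval of each 4'-BR sample was wider than the range of the 4'-BR values. Leaving out Control 2 moved Cd14, Tlr1, Tlr3 and Tlr4 by over 1.5 times, to −0.36, −0.29, 0.48 and −0.27.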

How the data were processed

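Expression was measured with the mouse PanCancer Immune Profiling panel on the nCounter platform, which counts probe barcodes without amplification. The deposited raw table holds an unscaled barcode count for every probe, per the file headers, covering 750 endogenous, 20 housekeeping, 6 positive and 8 negative control probes. Per gene, the authors' series table gives a normalized score. In all 6 samples its 770 values lay within 1 of the raw count times a factor, and these factors stood in 1 fixed ratio to the housekeeping factors computed here. No source used here names the authors' software.

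Groups and replicate numbers came from the sample titles. Raw counts were fitted with edgeR 4.0.16 in R 4.3.3 (glmQLFit and glmQLFTest, two-sided), with library sizes set by the geometric mean of the housekeeping probes. The 548 genes whose raw counts averaged 20 or more were tested, with Benjamini-Hochberg adjustment over them. All 10 member genes reached that minimum. Standard errors come from the F statistic. The fit was tested on simulated data. Ratios of partner genes were compared by exact permutation of the 6 samples. limma 3.58.1 and DESeq2 1.42.0 served as alternatives. Scaling, count minimum, background, pseudocount, pairing and single samples left out were also varied. The replicate numbers were not taken as pairs, since the labels state none and the 3 correlations of same-number deviations were −0.0775, 0.0751 and 0.213.

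The members and lists were chosen with earlier results of these data known. Named genes were the 10 members, genes past the threshold and the 2 of lowest p from each pathway list, and the 3 genes nearest in pattern to a member. The nearest genes are left out for Tlr1, Tlr3 and Tlr7. Myd88, Ticam1, Hmgb1, Tlr5, Tlr6 and Tlr9 were named after their values were seen. The same holds for the cell type markers Cxcr2, Elane, Mpo, Camp, Lyz2, Col1a1 and Col3a1. Intervals on counts cover counting error only.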

Additional observations from a re-analysis of the deposited data

How the results depend on the processing

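Over 20 alternatives the log2 fold change of Lbp stayed negative, from −1.60 to −0.36, and 10 passed. All genes called numbered 38, and 60 with total count scaling (0 of the 10 receptor and co-receptor genes among them), 244 with positive control scaling (7, all lower, against 44.3% of all genes), 69 in DESeq2, 9, 12 and 9 in limma with a pseudocount of 1, of 10 and on the deposited values (0 of the 10 in each), and 282 with macrophage marker scaling (2, both higher). The split of higher and lower calls was 7 and 31, and 30 and 30 with total count, 19 and 36 by TMM, 19 and 37 by DESeq2 size factors, and 21 and 48 in DESeq2. Leaving out single samples gave 0 to 35 calls over all genes and 0 to 1 over the 10, with 0 in edgeR without 4'-BR 1 (107 genes at an unadjusted p under 0.05) or 4'-BR 2 (116). The replicate block kept Lbp (−0.98, adjusted p = 0.0494), gave 30 calls and changed no other call among the 10. Signs turned for Tlr3 (−0.17) and Ly96 (−0.008) without 4'-BR 2, and for Tlr4 (0.072) without 4'-BR 3. Scalings that shift all genes alike also turned signs, for Tlr3 (−0.48) and Ly96 (−0.50) with positive controls, where the all-gene median was −0.67, and for Tlr1 (0.076), Tlr4 (0.44) and Tlr7 (0.027) with macrophage markers, where it was 0.61. With single samples left out, Tlr3 ran up to 0.48, Tlr4 down to −0.39 and Ly96 up to 0.29. Ratio differences with single samples left out ran from −0.57 to 0.58 for Lbp over Cd14, −1.14 to −0.014 for Cd14 over Tlr4, 0.12 to 0.61 for Ly96 over Tlr4, −0.086 to 0.081 for Ly86 over Cd180 and −0.018 to 0.49 for Tlr1 over Tlr2. The cause of the changes with single samples left out was not tested. A minimum of 50 counts left Tlr1, Tlr2, Tlr3 and Tlr7 untested. Low counts limit Tlr7 and Tlr2 in 4'-BR samples most.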
